A study of Mus musculus with 4 samples.

Results

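Described here is the response to lipopolysaccharide (LPS) in the pair of macrophage libraries titled KO, that is, the LPS library set against the untreated library of that title. It was taken across all genes that averaged 1 CPM or more over the 4 libraries of the study, where CPM is a gene's count per 1000000 counts of its library after scaling, and no measured response entered that rule. The rule kept 12326 of the 54532 genes in the deposited table, and 11119 of those kept (90.2%) were protein coding. The 81 genes just inside it had means of 1.00 to 1.049 CPM, and the 85 just outside it had 0.952 to 0.9995 CPM. RNA sequencing was done on macrophages grown from bone marrow progenitors of C57BL/6 mice aged 6 to 8 weeks. The cells were kept for 6 days in 20% medium from L929 cells, a source of the macrophage growth factor CSF-1, with 10% serum. They were then left untreated or given LPS for 3 h, at a dose not given in the sources used here. Every group, controls included, carried the floxed Fbxw7 genotype (FBXW7f/f), and the study set FBXW7f/f against LysM-cre FBXW7f/f, in which a Cre recombinase expressed in myeloid cells can delete the floxed segment. Each of the 4 groups was 1 library, the sources used here do not say how many mice each drew on, and no comparison has a replicate check.

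The labels do not agree among themselves on which libraries carried Cre. By title, 2 libraries are WT and 2 are KO, with 1 of each untreated and 1 of each given LPS. The genotype tag instead gives FBXW7f/f to both untreated libraries and LysM-cre FBXW7f/f to both LPS libraries, and in that reading treatment and genotype cannot be told apart. Groups here follow the titles. Transcripts of Fbxw7, the targeted gene, were at 17.2 CPM untreated and 11.7 CPM after LPS under the KO title, and 17.9 and 9.90 CPM under the WT title. The ratio after LPS was 1.48-fold (1.25 to 1.75) lower under the KO title and was not called, and the untreated KO-titled library was not low for this gene. A count over the whole gene does not check the deletion of a segment of it. Some genes pair the libraries across titles: Lyz1, a lysozyme gene, was at 32.9 CPM untreated and 2.63 CPM after LPS under the KO title, and 2.86 and 33.1 CPM under the WT title. Lyz1 and Lyz2 are close copies whose reads can be shared. Lyz1 was high in the untreated library titled KO and the LPS library titled WT, and low in the other pair, and its change was 12.5-fold (9.21 to 17.4) lower, or 1.09-fold lower on the WT baseline. For this reason each fold or log2 ratio of LPS against untreated that changes by more than 1.5 times, or loses or gains its call, when the KO-titled LPS library is set against the untreated library titled WT is also given on that WT baseline.

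LPS, a component of the outer membrane of gram-negative bacteria, is sensed on macrophages by Toll-like receptor 4 together with CD14 and MD-2. The adaptor MyD88 leads to NF-kB and AP-1 and to inflammatory cytokines, and the adaptor TRIF leads to IRF3 and interferon beta, which the same cells sense and answer with interferon-stimulated genes. Within hours the response also induces its own inhibitors and lowers many transcripts of the resting macrophage. FBXW7 recognizes phosphorylated proteins and brings them to an SCF ligase that tags them with ubiquitin, and C/EBP delta, cyclin E and Notch proteins are among its known substrates.

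A gene was called higher or lower where its CPM ratio, with a prior count of 2 added, was at least 2-fold and the exact 95% interval of its counts excluded no change. That interval covers counting error only. Under the KO title 1803 members (14.6%) were called higher and 2196 (17.8%) lower, which is 3999 (32.4%) in all. The counts of calls in gene lists below are to be read against these shares over all members. The higher calls reached farther: 353 genes were called higher at 8-fold or more against 176 called lower, and 22 against 2 at 100-fold or more. The median log2 ratio was 1.77 among genes called higher, -1.56 among genes called lower and -0.07 over all members. Some members passed the 1 CPM rule through their level in one condition only. In the untreated library titled KO 411 members were under 1 CPM, and 334 of them were called higher. In the LPS library of that title 604 were under 1 CPM, and 500 of these were called lower. Genes called higher held 11.1% of normalized counts before LPS and 35.8% after it, and genes called lower held 10.9% and 2.45%. In bulk RNA, fewer cells of a type and less RNA per cell cannot be told apart. With library totals in place of the TMM scaling, which moves the median of all members by -0.46, the split was 1147 higher and 3938 lower, and with the authors' FPKM it was 1461 higher and 818 lower. On the WT baseline the calls were 1741 higher (14.1%) and 1929 lower (15.6%). Both LPS libraries lay past both untreated libraries by that rule, in all 4 pairings, for 1225 genes higher (9.94%) and 1019 lower (8.27%).

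**Figure D1:**
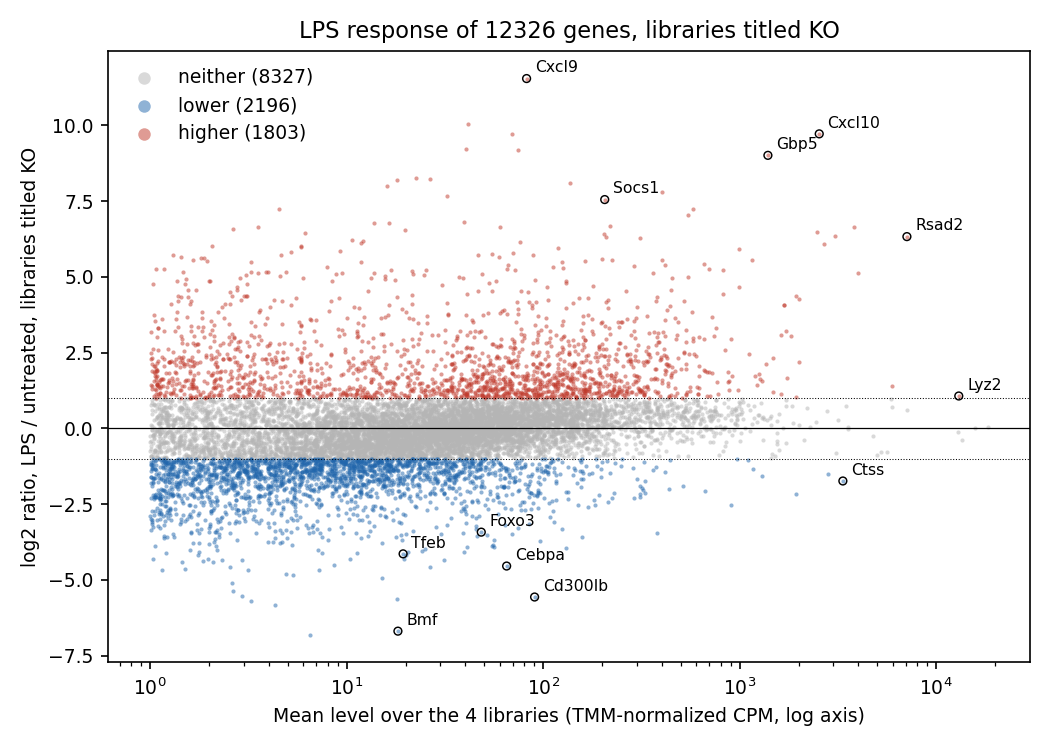
Log2 ratio of the LPS to the untreated library titled KO (vertical axis) against mean CPM over the 4 libraries (horizontal log axis), 1 point per member gene. Red points are the 1803 genes called higher, blue points the 2196 called lower and grey points the 8327 called neither, and dotted lines mark 2-fold. The higher calls reach larger ratios than the lower calls, with Cxcl9, Cxcl10 and Gbp5 near the top and Cd300lb and Bmf near the bottom.

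The libraries behind these values held 23835940 counts untreated and 19464937 after LPS under the KO title, against 17610372 and 20947275 under the WT title. A level of 3 counts, the 95% upper limit for a gene with 0 counts, was 0.108 to 0.184 CPM. The cell label was checked against marker lists. All 12 macrophage markers were measured, with a summed level of 25936 CPM untreated and 35053 CPM after LPS under the KO title, and 27786 and 32997 CPM under the WT title. Lyz2, whose levels are given below, makes up a large part of these sums. It was high in the untreated library titled WT and the LPS library titled KO, so the change of the sums does not stand for the other markers. Adgre1, the gene for the macrophage antigen F4/80, was at 2669 and 4422 CPM under the KO title, and Csf1r, the gene for the receptor of CSF-1, at 1891 and 1146 CPM. No natural killer cell marker of 6 and no erythroid marker of 8 passed the 1 CPM rule. Only 3 of 12 neutrophil, 3 of 8 T cell, 2 of 8 B cell, 1 of 8 fibroblast, 2 of 8 dendritic cell and 2 of 7 mast cell or basophil markers did. Ighm, the immunoglobulin heavy chain mu gene of B cells, was at 24.8 CPM untreated and 140.2 CPM after LPS under the KO title, and 76.6 and 37.6 CPM under the WT title, a change of 5.64-fold (5.18 to 6.15) higher, or 1.83-fold higher on the WT baseline. It was low in the untreated library titled KO and highest in the LPS library of that title, where the 8 B cell markers summed to 169.6 CPM against 42.9 CPM untreated. Its part in the results was not tested.

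**Figure D2:**
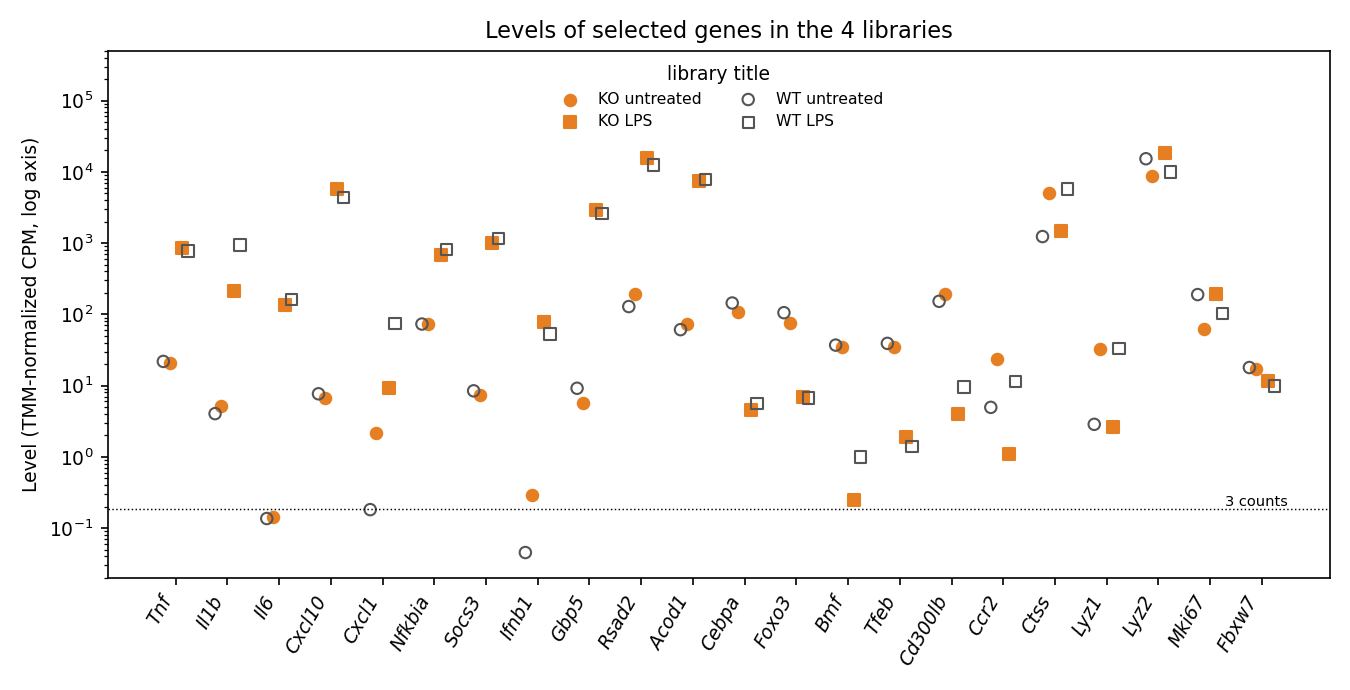
CPM on a log axis of 22 genes in each of the 4 libraries, with filled orange symbols for the libraries titled KO, open grey symbols for those titled WT, circles for untreated and squares for LPS. The dotted line marks 3 counts in the library with the smallest scaled size (0.184 CPM). Squares stand above circles for Tnf, Il1b, Cxcl10, Socs3, Gbp5 and Acod1 and below them for Cebpa, Foxo3, Bmf and Tfeb, while for Lyz1 and Ctss the filled circle lies beside the open square.

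Most inflammatory cytokine genes were called higher, against 14.6% over all members. Of 30 listed cytokine genes 26 were measured, 21 were called higher, 2 lower and 3 neither, with a median log2 ratio of 4.18, and 20 were higher in all 4 pairings. Il1b, encoding interleukin 1 beta, was at 5.13 CPM untreated and 215 CPM after LPS under the KO title, and 4.04 and 941 CPM under the WT title. Both LPS libraries stood far above both untreated ones, and the KO-titled LPS library held the lower level of the LPS pair, with a change of 41.9-fold (35.4 to 49.9) higher. Il1a, its interleukin 1 alpha partner, went from 0.832 to 91.4 CPM under the KO title and from 1.09 to 148 CPM under the WT title, a change of 109.8-fold (72.9 to 174) higher. Tnf, encoding tumour necrosis factor and named here after its values were seen, was at 20.5 CPM untreated and 857 CPM after LPS under the KO title, and 21.8 and 770.4 CPM under the WT title, with no overlap between treated and untreated libraries and a change of 41.8-fold (38.4 to 45.6) higher. The inflammasome substrate gene Il18 rose 4.72-fold (3.89 to 5.76). Tnfsf9, encoding the ligand of the costimulatory receptor 4-1BB, was 18.5-fold (12.8 to 27.7) higher. Vegfa, encoding vascular endothelial growth factor, and Tgfb3, a transforming growth factor beta gene, were the 2 cytokine genes called lower. Vegfa was at 164 CPM untreated and 25.4 CPM after LPS under the KO title, and 60.05 and 72.3 CPM under the WT title, so the untreated library titled KO held the highest level, and its change was 6.45-fold (5.84 to 7.15) lower, or 2.36-fold lower on the WT baseline. Inhba, the activin A subunit gene, was at 2.75 CPM untreated and 4.59 CPM after LPS under the KO title, and 0.136 and 67.95 CPM under the WT title. It was not called under the KO title, whose untreated library lay above and whose LPS library lay below its WT-titled counterpart. Its change was 1.67-fold (1.20 to 2.33) higher. On the WT baseline, which held 3 counts, it was called at 33.7-fold (11.1 to 167) higher.

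Among CC chemokine genes, whose products attract monocytes and lymphocytes, 6 of 9 measured were called higher and 1 lower, and all 6 of those higher were so in all 4 pairings. Ccl5, the gene for RANTES, was at 7.70 CPM untreated and 1182 CPM after LPS under the KO title, and 3.45 and 1112 CPM under the WT title. It was high in both LPS libraries, and the untreated library titled KO lay above the one titled WT, with a change of 153-fold (134 to 176) higher, or 343-fold higher on the WT baseline. Ccl4, encoding macrophage inflammatory protein 1 beta, was 60.7-fold (56.9 to 64.8) higher, Ccl3, its alpha counterpart, was 16.03-fold (15.01 to 17.1) higher, and Ccl12, a monocyte attractant of mice, was 73.1-fold (57.7 to 94.03) higher. Ccl8 went the other way, from 201 to 47.1 CPM under the KO title and from 32.8 to 239 CPM under the WT title, a change of 4.27-fold (3.96 to 4.62) lower, or 1.44-fold higher on the WT baseline. Its high libraries were the untreated one titled KO and the LPS one titled WT. Ccl6 and Ccl9 were not called, at log2 ratios of -0.34 (0.35 on the WT baseline) and 0.23 (0.93 on the WT baseline).

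CXC and CX3C chemokine genes gave 5 higher and 1 lower of 11, with a median log2 ratio of 0.67, or 3.07 on the WT baseline. Cxcl2, a neutrophil attractant, was at 6.47 CPM untreated and 45.1 CPM after LPS under the KO title, and 5.22 and 162 CPM under the WT title, a change of 6.97-fold (5.91 to 8.25) higher. Cxcl1, its close relative, was at 2.13 CPM untreated and 9.24 CPM after LPS under the KO title, and 0.181 and 74.5 CPM under the WT title. Untreated Cxcl1 was higher under the KO title than under the WT title, which left a change of 4.33-fold (3.19 to 5.96) higher, or 50.9-fold higher on the WT baseline. Its untreated level under the WT title was near that of 3 counts in that library (0.136 CPM). Cxcl11, a ligand of the receptor CXCR3 with Cxcl9 and Cxcl10, had 2 counts in the untreated library titled KO and went from 0.0723 to 137 CPM under the KO title and from 0.0907 to 141 CPM under the WT title, a change of 1897-fold (525 to 15674) higher. Cxcl14 was the gene called lower, 8.57-fold (3.17 to 32.5) lower. Pf4 and Cxcl16, both abundant in macrophages, were not called, at log2 ratios of 0.67 and -0.39 (0.70 on the WT baseline).

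Promoters of 4 genes called higher in all 4 pairings are shown, and each carries letters of a factor that LPS or interferon activates. Cxcl2, Socs1 and Gbp5 were picked among the named genes called higher by their number of matches, with ties settled by the size of the log2 ratio. Cxcl10 was picked by its response and not by its matches. It came from the genes with the largest log2 ratios at 20 counts or more in both KO-titled libraries. Each is the 250 bases before the transcription start in RefSeq, build GRCm38.p6, written 5′ to 3′ on the gene's strand, with matched letters in capitals. Cxcl2 (chr5:90903649-90903898, plus strand) has 2 overlapping matches to the NF-kB site in capitals, Socs1 (chr16:10785537-10785786, minus strand) has 2 overlapping matches to the interferon-stimulated response element, Gbp5 (chr3:142496684-142496933, plus strand) has 2 STAT sites, and Cxcl10 (chr5:92348890-92349139, minus strand) has a match to the response element, the NF-kB site and the AP-1 site, in that order.
Cxcl2: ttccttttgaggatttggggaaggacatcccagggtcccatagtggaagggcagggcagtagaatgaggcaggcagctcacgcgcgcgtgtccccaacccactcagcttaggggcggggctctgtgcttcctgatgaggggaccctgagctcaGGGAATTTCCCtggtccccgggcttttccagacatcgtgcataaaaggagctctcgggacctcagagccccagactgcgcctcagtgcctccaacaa
Socs1: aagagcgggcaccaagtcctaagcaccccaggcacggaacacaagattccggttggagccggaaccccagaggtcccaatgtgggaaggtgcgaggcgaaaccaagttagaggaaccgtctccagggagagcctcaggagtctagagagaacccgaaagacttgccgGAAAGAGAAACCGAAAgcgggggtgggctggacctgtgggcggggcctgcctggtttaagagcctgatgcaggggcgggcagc
Gbp5: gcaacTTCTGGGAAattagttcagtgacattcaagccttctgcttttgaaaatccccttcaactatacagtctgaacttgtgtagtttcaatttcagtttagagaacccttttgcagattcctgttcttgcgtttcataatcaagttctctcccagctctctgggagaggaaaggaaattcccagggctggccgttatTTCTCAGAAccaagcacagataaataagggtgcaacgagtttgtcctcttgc
Cxcl10: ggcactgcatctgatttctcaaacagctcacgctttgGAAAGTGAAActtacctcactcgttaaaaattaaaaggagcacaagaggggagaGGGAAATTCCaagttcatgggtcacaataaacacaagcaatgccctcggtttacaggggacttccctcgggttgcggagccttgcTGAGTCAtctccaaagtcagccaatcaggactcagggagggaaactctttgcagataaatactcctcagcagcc

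The letters searched, on both strands, were GGGA and TTCC spaced by any 2 bases for the NF-kB site, a pair of GAAA spaced by any 2 bases for the response element, TTCNNNGAA for STAT and TGANTCA for AP-1. Capitals mark only the motif named for each gene, and matches of other motifs in the same window stay in lower case. Over all 32851 RefSeq promoters of 300 bases (250 before the start and 50 after it), 1.47% held the NF-kB letters, 3.44% the response element, 8.30% the STAT letters and 7.81% the AP-1 letters. A match is a description and no evidence of binding. A promoter was found for 8977 of the 11119 protein-coding members (80.7%) but for only 79.0% of those called higher, so a comparison of motif shares between called groups is void and none is given.

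Cytokine receptor genes were called in both directions under the KO title, with fewer lower calls on the WT baseline. Of 33 such genes 10 were called higher and 8 lower (7 and 10 with library totals), with a median log2 ratio of 0.03 (-0.44 with library totals). On the WT baseline 12 were higher and 6 lower, and in all 4 pairings 8 were higher and 2 lower. Cd40, the receptor for T cell help on antigen-presenting cells, was at 4.19 CPM untreated and 435 CPM after LPS under the KO title, and 8.16 and 428 CPM under the WT title. It was high in both LPS libraries and was 104-fold (86.4 to 126) higher, or 53.3-fold higher on the WT baseline. Il15ra, which presents interleukin 15 to lymphocytes, was 28.4-fold (23.05 to 35.4) higher, and the death receptor gene Fas was 9.16-fold (8.002 to 10.5) higher. Lower calls included Il6ra, the interleukin 6 receptor gene, at 4.59-fold (4.10 to 5.17) lower, and Csf2rb2, the interleukin 3 receptor beta gene, at 4.78-fold (4.56 to 5.01) lower, or 2.64-fold lower on the WT baseline. Il7r, encoding the interleukin 7 receptor, and Il1r2, the interleukin 1 decoy receptor gene, depended on the baseline: Il7r was 4.23-fold (3.84 to 4.66) lower, or 1.19-fold higher on the WT baseline, and Il1r2 was 4.55-fold (2.54 to 8.83) lower, or 1.37-fold lower on the WT baseline.

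Chemokine receptor genes gave 1 higher and 6 lower of 8, with a median log2 ratio of -2.66, or -1.06 on the WT baseline. Cxcr4, the receptor gene for CXCL12, went from 156 to 10.4 CPM under the KO title and from 44.8 to 8.85 CPM under the WT title, a change of 15.04-fold (12.9 to 17.6) lower, or 4.30-fold lower on the WT baseline. Cxcr3, whose ligands CXCL9, CXCL10 and CXCL11 were among the genes called higher, was 5.24-fold (3.12 to 9.42) lower. Ccrl2, a non-signalling chemerin receptor, was the gene called higher, from 9.40 to 442 CPM under the KO title and from 5.31 to 443 CPM under the WT title, a change of 46.98-fold (41.5 to 53.4) higher, or 83.2-fold higher on the WT baseline. Ccr1 was at 22.3 CPM untreated and 2.63 CPM after LPS under the KO title, and 1.63 and 19.7 CPM under the WT title. It was high in the untreated library titled KO and the LPS library titled WT, so its change was 8.47-fold (6.21 to 11.8) lower, or 1.61-fold higher on the WT baseline. Under the WT title the median of these genes was 1.77, and 3 of the 8 were lower in all 4 pairings.

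Most genes of the Toll-like receptor 4 pathway were not called. Of 24 receptor complex and signalling genes 8 were called higher and 2 lower (3 and 2 with library totals), with a median log2 ratio of 0.45 (-0.01 with library totals). Peli1, a ubiquitin ligase of the pathway, was 18.3-fold (17.2 to 19.4) higher, and Map3k8, the kinase TPL2 upstream of ERK, was 4.82-fold (4.41 to 5.26) higher. Tlr4 was at 74.95 CPM untreated and 176 CPM after LPS under the KO title, and 71.2 and 146 CPM under the WT title, a change of 2.35-fold (2.22 to 2.48) higher. Cd14, the LPS co-receptor, was 2.29-fold (2.25 to 2.33) higher, or 5.41-fold higher on the WT baseline, and the adaptor gene Myd88 was 4.12-fold (3.92 to 4.32) higher. Tab1, a partner of the kinase TAK1, was 3.65-fold (2.94 to 4.57) lower. Among the other Toll-like receptor genes 4 of 11 were higher and 2 lower (2 and 3 with library totals). Tlr2, for bacterial lipoproteins, was 7.65-fold (7.34 to 7.97) higher, and Tlr3, for double-stranded RNA, was 4.47-fold (4.03 to 4.96) higher. Tlr5, the flagellin receptor, fell from 5.10 to 0.0612 CPM under the KO title and from 4.58 to 0.641 CPM under the WT title, a change of 83.3-fold (14.7 to 3314) lower.

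Genes of NF-kB feedback were called higher almost throughout. Of 21 NF-kB subunit, IkB and ubiquitin editor genes 19 were higher and 0 lower, against the 14.6% called higher over all members, and 18 were higher in all 4 pairings, with a median log2 ratio of 2.35. Tnfaip3, encoding the ubiquitin editor A20, was at 32.5 CPM untreated and 1258 CPM after LPS under the KO title, and 21.997 and 1482 CPM under the WT title. Both LPS libraries lay above both untreated ones, with a change of 38.7-fold (36.2 to 41.4) higher. Nfkbia, encoding IkB alpha, was at 73.98 CPM untreated and 673 CPM after LPS under the KO title, and 73.02 and 805 CPM under the WT title, a change of 9.09-fold (8.67 to 9.54) higher. Nfkbie, for IkB epsilon, was 11.1-fold (10.2 to 12.2) higher, or 18.1-fold higher on the WT baseline, Nfkb1, for the p50 precursor, was 8.49-fold (8.15 to 8.85) higher, and Nfkb2, for the p52 precursor and a reported FBXW7 substrate, was 5.09-fold (4.88 to 5.31) higher. The members not called were Cyld, a deubiquitinase, and Otulin, a linear-chain deubiquitinase, at log2 ratios of 0.64 and -0.17.

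Other feedback classes were less uniform. Of 8 suppressors of cytokine signalling genes 4 were higher and 1 lower. Socs1, an inhibitor of interferon signalling, was at 2.49 CPM untreated and 484 CPM after LPS under the KO title, and 3.04 and 333 CPM under the WT title. It was low untreated and high after LPS in both titles, and was 194-fold (153 to 249.6) higher. Socs3, an inhibitor of signalling by the interleukin 6 family, was at 7.45 CPM untreated and 1001 CPM after LPS under the KO title, and 8.44 and 1157 CPM under the WT title, a change of 134-fold (117 to 155) higher. Cish was 35.5-fold (21.9 to 61.7) higher, and Socs5 was 3.17-fold (2.40 to 4.27) lower. Of 11 dual-specificity phosphatase genes, which switch off MAP kinases, 3 were higher and 3 lower, against 5 and 1 on the WT baseline. In all 4 pairings 3 of them were higher and 0 lower. Dusp2 was 62.98-fold (51.9 to 77.2) higher, Dusp16 was 23.4-fold (20.04 to 27.5) higher and Dusp7 was 3.11-fold (2.73 to 3.54) lower. Dusp1, the p38 phosphatase gene, was not called, with 131 CPM untreated and 194 CPM after LPS under the KO title, and 61.1 and 460.3 CPM under the WT title, a change of 1.48-fold (1.41 to 1.55) higher, or 3.17-fold higher on the WT baseline. The untreated library titled KO held more of it than the one titled WT. Of 15 regulators of AU-rich mRNA decay 3 were higher and 6 lower. Zfp36, encoding tristetraprolin, was 2.34-fold (2.25 to 2.42) higher, or 3.56-fold higher on the WT baseline, and Zc3h12a, encoding the RNase regnase-1, was 3.38-fold (3.15 to 3.63) higher. The tristetraprolin paralogs fell, and Zfp36l1 was 12.9-fold (11.02 to 15.3) lower, or 7.78-fold lower on the WT baseline. Zfp36l2 was 12.2-fold (11.02 to 13.4) lower.

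Of the 12 genes with the largest gain in CPM under the KO title, 6 were on the antiviral effector list. Compared per transcript length in the authors' FPKM (fragments scaled by transcript length and library size), Rsad2, the gene of the antiviral enzyme viperin, went from 43.4 to 3712 under the KO title, Ifit2 from 64.03 to 2378, Cmpk2 from 19.6 to 1714 and Ifit1 from 34.6 to 2479. In CPM, Rsad2 was at 195 CPM untreated and 15671 CPM after LPS under the KO title, and 128 and 12389 CPM under the WT title. Both LPS libraries held far more than both untreated ones, and the change was 80.3-fold (78.1 to 82.5) higher, or 122-fold higher on the WT baseline. Of 26 antiviral effector genes 20 were higher and 0 lower, with a median log2 ratio of 2.79, and all 20 were higher in all 4 pairings. Cmpk2, a mitochondrial nucleotide kinase lying beside Rsad2, was 82.04-fold (78.8 to 85.5) higher, Ifit1, which binds foreign RNA caps, was 67.3-fold (64.7 to 69.95) higher, Mx1, a dynamin-like GTPase, was 20.6-fold (20.1 to 21.3) higher, and Ifit2 was 34.9-fold (34.05 to 35.7) higher. Ifitm3, which blocks viral entry, and Bst2, which tethers virions, were abundant and not called. Ifitm3 was at 1117 CPM untreated and 1040 CPM after LPS under the KO title, and 567 and 1763 CPM under the WT title, a log2 ratio of -0.10 (0.87 on the WT baseline). Bst2 was at 1114 CPM untreated and 835 CPM after LPS under the KO title, and 509 and 1546 CPM under the WT title, a log2 ratio of -0.41 (0.71 on the WT baseline). For both genes the untreated library titled KO lay above the one titled WT.

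Interferon-inducible GTPase genes were called higher with a single exception. Of 21 guanylate-binding protein and immunity-related GTPase genes, which attack the vacuoles of intracellular microbes, 20 were called higher, 0 lower and 20 higher in all 4 pairings, with a median log2 ratio of 3.76. Gbp7 was at 18.4 CPM untreated and 872 CPM after LPS under the KO title, and 26.8 and 692 CPM under the WT title, a change of 47.5-fold (43.5 to 51.98) higher. Iigp1 was 43.4-fold (40.7 to 46.3) higher, Gbp4 was 40.4-fold (34.6 to 47.5) higher, or 71.8-fold higher on the WT baseline and Tgtp1 was 40.01-fold (23.5 to 73.99) higher, while Gbp8 was not called, at a log2 ratio of 0.37. Close copies within these families can share reads, so single members are uncertain. Of 16 nucleic acid sensor genes 13 were higher and 0 lower (13 and 1 with library totals), with a median of 2.41. Ifih1, encoding the RNA sensor MDA5, was 46.8-fold (44.6 to 49.1) higher, and Ifi205, of the DNA-sensing AIM2-like family, was 79.1-fold (68.6 to 91.7) higher, or 151-fold higher on the WT baseline. The signalling adaptor gene Mavs was not called, at a log2 ratio of -0.93.

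Of 17 interferon, interferon regulatory factor and STAT genes 10 were higher and 1 lower (7 and 3 with library totals), with a median log2 ratio of 1.09. Irf1, an early interferon target and activator, was at 71.7 CPM untreated and 891 CPM after LPS under the KO title, and 63.1 and 853 CPM under the WT title, a change of 12.4-fold (11.9 to 13.03) higher. Stat5a was 6.14-fold (5.56 to 6.80) higher, Stat3 was 3.28-fold (3.16 to 3.41) higher and Irf8, a myeloid lineage factor, was 3.90-fold (3.78 to 4.02) higher. Irf7, the amplifier of interferon transcription, was at 606 CPM untreated and 799.5 CPM after LPS under the KO title, and 136 and 1252 CPM under the WT title. It was not called under the KO title, the untreated KO-titled library lay above the WT-titled one, and it was 5.87-fold higher on the WT baseline. Irf2bp2, a co-repressor of interferon regulatory factors, fell from 119 to 16.6 CPM under the KO title and from 72.5 to 26.7 CPM under the WT title, a change of 7.17-fold (6.33 to 8.14) lower, or 4.37-fold lower on the WT baseline.

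Transcription factor genes split by class. Of 21 AP-1 and ATF genes 7 were higher and 0 lower (6 and 4 with library totals), with a median log2 ratio of 0.22 (-0.25 with library totals). Maff, a small Maf factor, was 32.5-fold (25.4 to 42.3) higher, Batf2 was 23.1-fold (19.9 to 26.99) higher, and Junb was 3.70-fold (3.59 to 3.82) higher, or 6.57-fold higher on the WT baseline. Fos was not called, at a log2 ratio of -0.78 (0.23 on the WT baseline). Of 25 other immediate early genes 10 were higher and 2 lower (8 and 4 with library totals). Csrnp1 was 29.1-fold (25.6 to 33.1) higher, and Gadd45b, a stress sensor, was 6.41-fold (6.02 to 6.83) higher, or 12.9-fold higher on the WT baseline. The nuclear receptor genes Nr4a1 and Nr4a3 went apart: Nr4a1 was 3.63-fold (2.98 to 4.46) lower, or 1.58-fold lower on the WT baseline, while Nr4a3 was 6.43-fold (4.69 to 8.97) higher, or 15.1-fold higher on the WT baseline. Nr4a1 itself was at 25.8 CPM untreated and 7.10 CPM after LPS under the KO title, and 11.2 and 24.5 CPM under the WT title, high in the untreated library titled KO.

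Macrophage lineage and repressor factor genes were called in both directions. Of 35 lineage and repressor factor genes 9 were higher and 13 lower (5 and 16 with library totals), against backgrounds of 14.6% and 17.8%, with a median log2 ratio of -0.18. Cebpa, encoding the myeloid lineage factor C/EBP alpha and a reported FBXW7 substrate, was at 106 CPM untreated and 4.47 CPM after LPS under the KO title, and 144 and 5.59 CPM under the WT title. Both LPS libraries were low and did not overlap the untreated ones. Tfeb, the lysosome biogenesis factor, was at 35.04 CPM untreated and 1.90 CPM after LPS under the KO title, and 39.1 and 1.40 CPM under the WT title, a change of 18.5-fold (12.9 to 27.3) lower. Id3, an inhibitor of E proteins, was 11.2-fold (9.70 to 12.98) lower. Tfec, a relative of Tfeb, rose instead, from 4.16 to 74.04 CPM under the KO title and from 9.57 to 41.1 CPM under the WT title, a change of 17.8-fold (14.7 to 21.8) higher, or 7.74-fold higher on the WT baseline, and Mitf of the same family was 5.18-fold (4.82 to 5.57) higher. Spi1, encoding the lineage factor PU.1, was not called, at a log2 ratio of 0.09. Cebpd, encoding the FBXW7 substrate C/EBP delta, was at 33.6 CPM untreated and 82.5 CPM after LPS under the KO title, and 42.6 and 115 CPM under the WT title, a change of 2.45-fold (2.26 to 2.67) higher, or 1.94-fold higher on the WT baseline.

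Genes of the FOXO list were called lower more often than higher. Of 16 FOXO factor, sestrin and target genes 9 were lower and 4 higher, with a median log2 ratio of -1.54, and 8 were lower in all 4 pairings. Foxo3 was at 74.6 CPM untreated and 6.85 CPM after LPS under the KO title, and 105 and 6.70 CPM under the WT title. The LPS libraries lay below the untreated ones, with a change of 10.9-fold (8.997 to 13.3) lower. Ddit4, an inhibitor of mTORC1, fell from 19.6 to 1.35 CPM under the KO title and from 37.7 to 1.81 CPM under the WT title, a change of 14.6-fold (9.52 to 23.4) lower, or 28.03-fold lower on the WT baseline, and Sesn1, encoding sestrin 1, was 7.70-fold (6.87 to 8.65) lower, or 13.2-fold lower on the WT baseline. Txnip, which restrains glucose uptake, was 3.37-fold (3.23 to 3.51) lower. The members called higher were led by Cited2, a CBP and p300 binder, at 5.33-fold (5.10 to 5.56) higher. Of 15 circadian clock genes 2 were higher and 10 lower (1 and 11 with library totals), with a median of -1.40. Bhlhe41, a clock repressor, was 11.6-fold (8.94 to 15.4) lower, or 6.01-fold lower on the WT baseline, the output factor gene Dbp was 5.68-fold (3.49 to 9.81) lower, or 9.06-fold lower on the WT baseline and its relative Tef was 4.19-fold (3.65 to 4.83) lower, while Nfil3, an antagonist of that pair, was 3.74-fold (3.36 to 4.17) higher, or 6.61-fold higher on the WT baseline. Clock itself was not called, at a log2 ratio of -0.14.

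**Figure D3:**
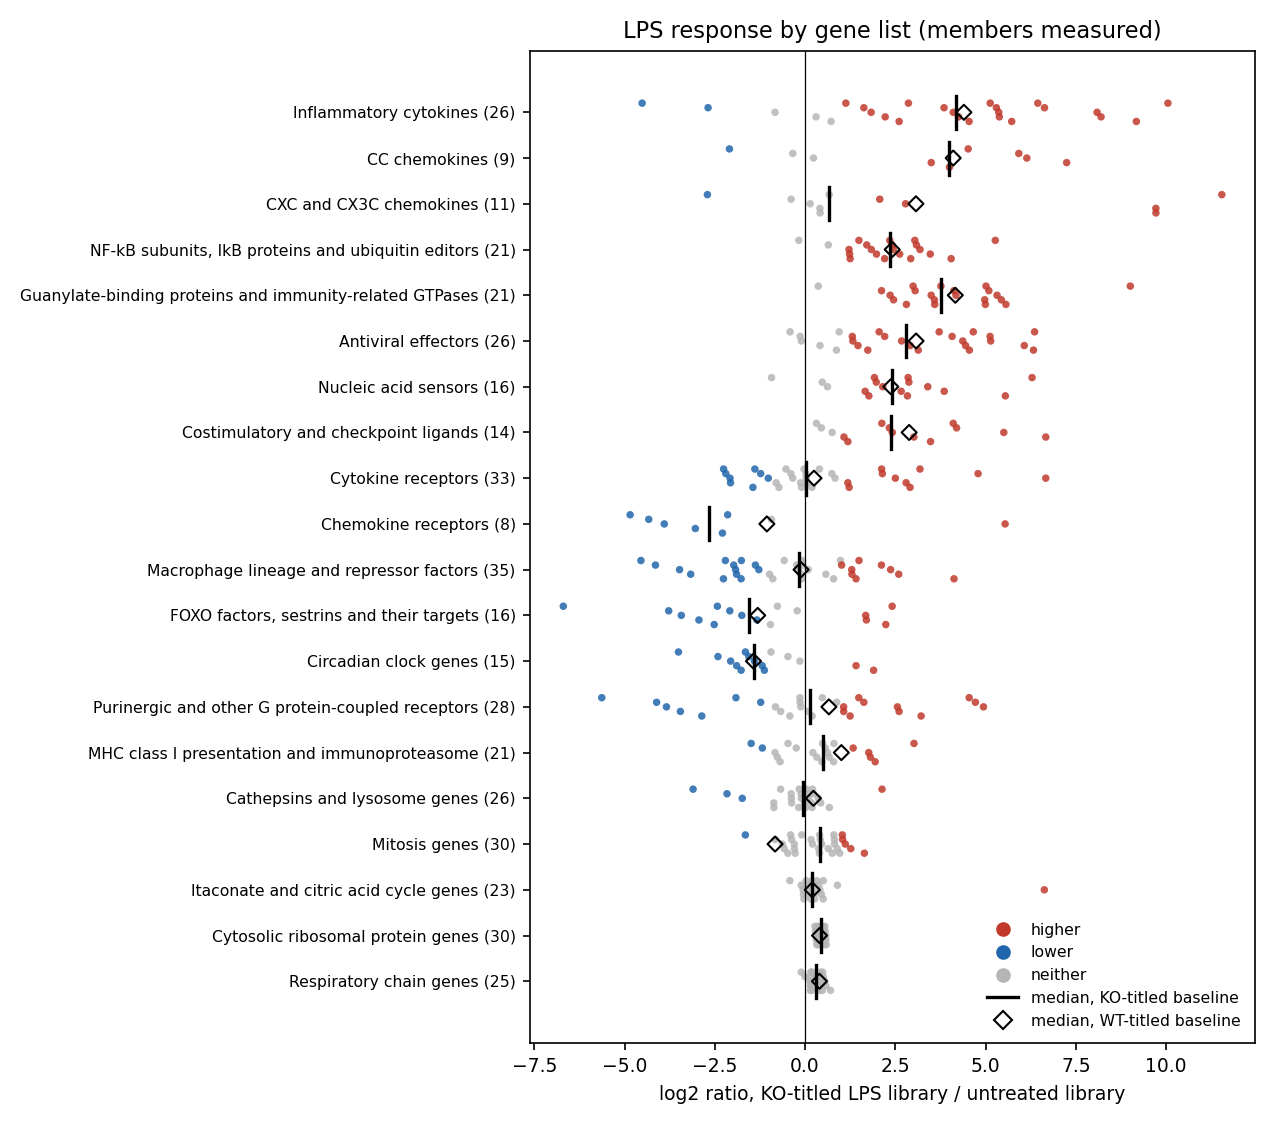
Log2 ratio of the LPS to the untreated library titled KO for each measured member of 20 gene lists, 1 point per gene, in red where called higher, blue where called lower and grey where neither. Black bars are list medians and open diamonds the medians with the untreated library titled WT as baseline, and the GTPase list (median 3.76) lies to the right while the FOXO list (median -1.54) lies to the left.

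Most called genes of cell survival and death were higher. Of 24 BCL2 family and death genes 12 were higher and 2 lower (8 and 3 with library totals), with a median log2 ratio of 1.00. Cflar, encoding the caspase 8 inhibitor cFLIP, was at 96.03 CPM untreated and 1239 CPM after LPS under the KO title, and 102 and 1462 CPM under the WT title, a change of 12.9-fold (12.4 to 13.4) higher. Bcl2a1d and Bcl2a1b, anti-apoptotic genes, were 18.1-fold (15.8 to 20.9) higher for the first and 9.37-fold (8.20 to 10.8) higher, or 14.6-fold higher on the WT baseline for the second, and near-identical copies of this gene share reads. Bmf, a pro-apoptotic BH3-only gene also on the FOXO list, was at 34.7 CPM untreated and 0.245 CPM after LPS under the KO title, and 36.96 and 0.990 CPM under the WT title, low in both LPS libraries. Bcl2l1, encoding the anti-apoptotic BCL-XL, was also 2.38-fold (2.13 to 2.68) lower, and Mcl1 was not called, at a log2 ratio of 0.02 (0.73 on the WT baseline). Of 20 inflammasome genes 8 were higher and 4 lower (7 and 6 with library totals). Nlrp3, the sensor that needs priming by LPS, was at 42.4 CPM untreated and 393 CPM after LPS under the KO title, and 50.3 and 678 CPM under the WT title, a change of 9.27-fold (8.71 to 9.87) higher. Casp4, the mouse caspase 11 gene that senses cytosolic LPS, was 10.5-fold (9.50 to 11.5) higher. Nlrp1b, another sensor, was 6.30-fold (5.18 to 7.72) lower, and P2rx7, the ATP receptor gene, was 3.78-fold (3.35 to 4.28) lower. The pore gene Gsdmd was not called, at a log2 ratio of 0.08.

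Arginine and nitric oxide genes were called higher more often than lower. Of 16 arginine, nitric oxide and polyamine genes 7 were higher and 1 lower. Nos2, the inducible nitric oxide synthase, was at 1.23 CPM untreated and 70.9 CPM after LPS under the KO title, and 0.726 and 147 CPM under the WT title. It was high in both LPS libraries, with a change of 57.6-fold (41.01 to 83.6) higher, or 97.6-fold higher on the WT baseline. Slc7a2, the arginine transporter that feeds it, was 38.6-fold (31.2 to 48.2) higher, and Gch1, which supplies its cofactor, was 7.66-fold (6.98 to 8.43) higher. Arg1, which competes for arginine, was at 10.99 CPM untreated and 0.122 CPM after LPS under the KO title, and 1.32 and 0.582 CPM under the WT title. The untreated library titled KO held the most, and the change was 89.8-fold (24.7 to 745) lower, or 10.7-fold lower on the WT baseline. Of 23 itaconate and citric acid cycle genes only Acod1, which makes itaconate, was called. Acod1 was at 73.9 CPM untreated and 7311 CPM after LPS under the KO title, and 60.9 and 7740 CPM under the WT title, a change of 98.97-fold (94.7 to 103) higher, while the succinate dehydrogenase gene Sdha was at a log2 ratio of 0.16.

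Of 28 glycolysis and hypoxia genes 10 were higher and 5 lower (6 and 6 with library totals), with a median log2 ratio of 0.44 (-0.03 with library totals). Slc2a6, a glucose transporter family member, was 9.97-fold (9.29 to 10.7) higher, Pfkfb3, which makes the activator of phosphofructokinase, was 4.72-fold (4.50 to 4.94) higher, and Hk2, the inducible hexokinase, was 4.65-fold (4.41 to 4.90) higher, or 2.46-fold higher on the WT baseline. Pfkfb4 was 4.24-fold (3.61 to 5.01) lower, and Slc16a3, the lactate exporter, was 4.29-fold (3.99 to 4.62) lower, or 1.87-fold lower on the WT baseline. Pkm and Aldoa were not called, at log2 ratios of 0.48 (-0.15 on the WT baseline) and 0.40. Of 27 sterol and fatty acid synthesis genes 2 were higher and 4 lower (1 and 16 with library totals). Insig1, a brake on sterol synthesis, was 4.35-fold (4.01 to 4.72) higher. Scd1, a fatty acid desaturase, was 3.71-fold (2.10 to 7.07) lower, or 1.54-fold lower on the WT baseline. Of 19 LXR target and lipid genes 1 was higher and 3 lower (1 and 8 with library totals). Ch25h, which makes 25-hydroxycholesterol, went from 0.506 to 66.9 CPM under the KO title and from 0.998 to 89.96 CPM under the WT title, a change of 132-fold (78.5 to 243) higher, or 67.1-fold higher on the WT baseline. Nr1h3, the gene of the receptor LXR alpha, was 3.95-fold (3.48 to 4.50) lower, or 2.01-fold lower on the WT baseline. Apoe, encoding a lipid carrier, was not called, at a log2 ratio of 0.04.

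Of 15 prostaglandin and leukotriene genes 7 were higher and 0 lower (4 and 2 with library totals), but 4 higher and 2 lower on the WT baseline. Ptgs2, the inducible cyclooxygenase, was at 3.43 CPM untreated and 63.4 CPM after LPS under the KO title, and 2.09 and 270.2 CPM under the WT title, a change of 18.5-fold (14.9 to 23.02) higher, or 30.4-fold higher on the WT baseline. Hpgd, which degrades prostaglandins, was at 2.46 CPM untreated and 11.3 CPM after LPS under the KO title, and 16.5 and 1.28 CPM under the WT title. It was called higher under the KO title, at a log2 ratio of 2.16 (-0.54 on the WT baseline), and its low libraries were the untreated one titled KO and the LPS one titled WT. Of 23 NRF2 and antioxidant genes 8 were higher and 1 lower (5 and 3 with library totals), against 5 and 3 on the WT baseline. Slc7a11, the cystine transporter, was 7.84-fold (7.16 to 8.59) higher, Sod2, the mitochondrial superoxide dismutase, was 5.71-fold (5.50 to 5.92) higher, and Gpx1, a glutathione peroxidase, was 2.71-fold (2.62 to 2.81) lower, or 1.30-fold lower on the WT baseline. Of 21 NADPH oxidase and antimicrobial genes 10 were higher and 2 lower (7 and 3 with library totals). Nod2, the muramyl dipeptide sensor, was 8.66-fold (7.73 to 9.71) higher, or 14.5-fold higher on the WT baseline, and Ido2, a tryptophan-degrading enzyme, was 20.2-fold (11.2 to 39.9) higher. Lyz2, the lysozyme gene that carries the Cre in LysM-cre mice, was at 8711 CPM untreated and 18238 CPM after LPS under the KO title, and 15253 and 9917 CPM under the WT title. The untreated library titled WT and the LPS library titled KO were the high pair, with a change of 2.09-fold (2.08 to 2.10) higher, or 1.20-fold higher on the WT baseline.

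Scavenger receptor and C-type lectin genes gave more higher than lower calls, while TREM, CD300, Fc and inhibitory receptor genes did not. Of 18 scavenger and phagocytic receptor genes 7 were higher and 1 lower. Olr1, the oxidized LDL receptor, was at 1.66 CPM untreated and 87.99 CPM after LPS under the KO title, and 0.952 and 149 CPM under the WT title, a change of 52.9-fold (39.5 to 72.6) higher, or 92.4-fold higher on the WT baseline. Marco, a scavenger receptor for bacteria, was at 106 CPM untreated and 1211 CPM after LPS under the KO title, and 434 and 190.3 CPM under the WT title. It was lower in the untreated library titled KO than in the one titled WT, with a change of 11.5-fold (11.04 to 11.9) higher, or 2.79-fold higher on the WT baseline. Of 14 C-type lectin genes 6 were higher and 0 lower (5 and 1 with library totals). Clec4e, the Mincle receptor gene, was 7.79-fold (7.47 to 8.13) higher, or 18.5-fold higher on the WT baseline, Clec5a was 12.2-fold (10.5 to 14.1) higher, or 6.94-fold higher on the WT baseline and Klrk1, the NKG2D receptor gene, was at least 126-fold higher, or 100.3-fold higher on the WT baseline. Of 22 TREM, CD300, Fc and inhibitory receptor genes 5 were higher and 7 lower, against 4 and 4 on the WT baseline. In all 4 pairings 2 of them were higher and 1 lower. Fcgr2b, the inhibitory IgG receptor, was 4.69-fold (4.47 to 4.92) higher, and Fcgr4 was 3.24-fold (3.14 to 3.34) higher, or 5.07-fold higher on the WT baseline. Cd300lf, an inhibitory member, was at 123 CPM untreated and 8.02 CPM after LPS under the KO title, and 44.7 and 47.7 CPM under the WT title, a change of 15.4-fold (12.9 to 18.4) lower, or 5.57-fold lower on the WT baseline, and its activating neighbour Cd300lb was low in both LPS libraries, at 4.04 and 9.49 CPM. Siglec1, a sialic acid receptor, was at 617 CPM untreated and 152 CPM after LPS under the KO title, and 183 and 784 CPM under the WT title, a change of 4.05-fold (3.88 to 4.23) lower, or 1.20-fold lower on the WT baseline, and was high in the untreated library titled KO and the LPS library titled WT.

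Adhesion and costimulation genes were called higher more often than lower. Of 18 integrin and adhesion genes 9 were higher and 2 lower (7 and 3 with library totals). Icam1, a ligand of leukocyte integrins, was at 57.3 CPM untreated and 1052 CPM after LPS under the KO title, and 58.96 and 924 CPM under the WT title, with a change of 18.4-fold (17.4 to 19.3) higher, and Vcam1 was 15.5-fold (13.7 to 17.6) higher, or 7.77-fold higher on the WT baseline. Itgb7, the beta 7 integrin subunit, was at 27.8 CPM untreated and 1.53 CPM after LPS under the KO title, and 1.90 and 13.8 CPM under the WT title, which puts its change at 18.2-fold (12.2 to 28.3) lower, or 1.25-fold lower on the WT baseline. Of 14 costimulatory and checkpoint ligand genes 11 were higher and 0 lower, and the median log2 ratio was 2.37. Tnfsf4, encoding OX40 ligand, was 55.5-fold (30.7 to 112) higher, or 22.1-fold higher on the WT baseline, and Slamf8 was 11.5-fold (8.80 to 15.4) higher, or 6.93-fold higher on the WT baseline. Of 28 G protein-coupled receptor genes 11 were higher and 7 lower (8 and 9 with library totals). Gpr84, a receptor for medium-chain fatty acids, was at 3.94 CPM untreated and 94.05 CPM after LPS under the KO title, and 2.72 and 84.7 CPM under the WT title, a change of 23.9-fold (19.6 to 29.3) higher, Adora2a, the adenosine receptor that dampens inflammation, was 27.5-fold (20.8 to 37.2) higher, or 16.1-fold higher on the WT baseline, and Hcar2, the niacin receptor, was 33.7-fold (22.6 to 52.6) higher, or 9.88-fold higher on the WT baseline. Lpar5 and Lpar6, receptors for lysophosphatidic acid, were 19.3-fold (10.9 to 37.7) lower and 14.4-fold (12.3 to 17.1) lower, or 7.47-fold lower on the WT baseline.

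Antigen presentation genes depended on the baseline. Of 21 MHC class I and immunoproteasome genes 5 were higher and 2 lower (4 and 5 with library totals) under the KO title, against 11 and 0 on the WT baseline. Nlrc5, the activator of class I genes, was 8.11-fold (7.58 to 8.69) higher, and Tap1, the peptide transporter, was at 166 CPM untreated and 640.0 CPM after LPS under the KO title, and 106 and 596 CPM under the WT title, a change of 3.84-fold (3.71 to 3.98) higher, or 6.06-fold higher on the WT baseline. H2-Q7, a nonclassical class I gene, was at 95.7 CPM untreated and 42.1 CPM after LPS under the KO title, and 13.02 and 199 CPM under the WT title. Its lowest library was the untreated one titled WT, so the change was 2.27-fold (2.09 to 2.48) lower, or 3.23-fold higher on the WT baseline. Reads of class I genes can be shared between close copies, so H2-Q6 and H2-Q7 are uncertain. Of 10 class II genes 0 were higher and 3 lower (0 and 6 with library totals). Ciita, the class II activator, was 7.75-fold (3.95 to 17.4) lower, H2-DMb2 was 2.88-fold (1.63 to 5.40) lower, and Cd74, the invariant chain gene, was not called, at a log2 ratio of 0.05. Of 14 complement genes 2 were higher and 0 lower (1 and 0 with library totals). C5ar1, the C5a receptor, was 2.10-fold (2.05 to 2.15) higher, and C1qb was not called, at a log2 ratio of 0.39.

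Secreted proteases and inhibitors were called higher more often than lower. Of 30 matrix protease, coagulation and serpin genes 15 were higher and 6 lower (12 and 9 with library totals), against 14.6% and 17.8% over all members. On the WT baseline 15 were higher and 2 lower, and in all 4 pairings 12 were higher and 0 lower. Mmp13, a collagenase, was at 39.01 CPM untreated and 1453 CPM after LPS under the KO title, and 18.1 and 1770 CPM under the WT title. Both LPS libraries lay above both untreated ones, with a change of 37.2-fold (35.03 to 39.6) higher, or 80.3-fold higher on the WT baseline. Serpinb2, a serpin gene induced in activated macrophages, was 45.5-fold (37.4 to 55.96) higher, or 287-fold higher on the WT baseline. Thbs1, encoding thrombospondin 1, was at 1692 CPM untreated and 295 CPM after LPS under the KO title, and 469 and 1168 CPM under the WT title. The untreated library titled KO held the highest level, and the change was 5.74-fold (5.57 to 5.91) lower, or 1.59-fold lower on the WT baseline. Of 26 cathepsin and lysosome genes 1 was higher and 3 lower (1 and 6 with library totals), with a median log2 ratio of -0.06, or 0.23 on the WT baseline. Ctss, the cathepsin of antigen processing, was at 4968 CPM untreated and 1488 CPM after LPS under the KO title, and 1234 and 5711 CPM under the WT title. Ctsl, another cysteine cathepsin gene, was at 3798 CPM untreated and 849 CPM after LPS under the KO title, and 1013 and 2041 CPM under the WT title. Both were highest in the untreated library titled KO and the LPS library titled WT. Ctss was 3.34-fold (3.29 to 3.38) lower, or 1.21-fold higher on the WT baseline. Ctsl was 4.47-fold (4.39 to 4.55) lower, or 1.19-fold lower on the WT baseline. Ctsc, which activates granule proteases, was at 476 CPM untreated and 2086 CPM after LPS under the KO title, and 638 and 2264 CPM under the WT title. It was higher in both LPS libraries, with a change of 4.39-fold (4.30 to 4.48) higher.

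Proliferation genes showed a further dependence on the untreated library. Of 30 mitosis genes 5 were higher and 1 lower (1 and 4 with library totals) under the KO title, with a median log2 ratio of 0.40 (-0.06 with library totals), or -0.83 on the WT baseline, and on the WT baseline 0 were higher and 12 lower. Mki67, the Ki-67 proliferation marker gene, was at 61.5 CPM untreated and 192 CPM after LPS under the KO title, and 189 and 104 CPM under the WT title. The untreated library titled KO was the lowest, and the LPS library titled KO stood beside the untreated one titled WT, so the change was 3.13-fold (2.95 to 3.32) higher, or 1.02-fold higher on the WT baseline. Under the WT title the median was -2.19, and the difference of responses was positive by at least 1 log2 unit for 29 of 30. Of 35 DNA replication genes 3 were higher and 2 lower (1 and 3 with library totals). Ccne1, encoding the FBXW7 substrate cyclin E1, was at 9.18 CPM untreated and 43.9 CPM after LPS under the KO title, and 11.6 and 27.02 CPM under the WT title, a change of 4.78-fold (4.13 to 5.53) higher, while E2f2 was 5.45-fold (4.05 to 7.48) lower. Of 14 cyclin D and CDK inhibitor genes 6 were higher and 1 lower (4 and 3 with library totals). Ccnd2, a G1 cyclin, was 8.45-fold (7.17 to 10.01) higher, or 16.2-fold higher on the WT baseline, and the CDK inhibitor gene Cdkn1a, encoding p21, was 3.59-fold (3.50 to 3.68) higher.

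Ribosome, tRNA synthetase and respiratory chain genes were called less often than the 32.4% over all members. Of 30 ribosome biogenesis genes 4 were higher and 2 lower (2 and 3 with library totals), and of 20 aminoacyl-tRNA synthetase genes 2 were higher, led by Rars at 3.65-fold (3.44 to 3.88) higher. None of the 30 cytosolic ribosomal protein genes and none of the 25 respiratory chain genes was called, at median log2 ratios of 0.44 (-0.03 with library totals) for the first and 0.30 (-0.17 with library totals) for the second. Of 26 chaperone and unfolded protein response genes 8 were higher and 1 lower (3 and 3 with library totals), against 3 and 0 on the WT baseline. Xbp1, a transcription factor of that response, was 3.09-fold (2.94 to 3.24) higher, and Ddit3, encoding the stress factor CHOP, was at 61.1 CPM untreated and 13.6 CPM after LPS under the KO title, and 27.4 and 49.4 CPM under the WT title, a change of 4.48-fold (3.89 to 5.17) lower, or 2.01-fold lower on the WT baseline. Among 14 genes often used as references 2 were higher and 2 lower (0 and 2 with library totals). Actb was 2.62-fold (2.60 to 2.64) higher, or 1.67-fold higher on the WT baseline, and Gapdh, whose pseudogene copies can share its reads, was at 65.3 CPM untreated and 3.55 CPM after LPS under the KO title, and 7.57 and 3.67 CPM under the WT title, a change of 18.4-fold (14.2 to 24.3) lower, or 2.13-fold lower on the WT baseline, so it is no reference here.

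Genes around FBXW7 were examined as a group of their own. Of 16 SCF ligase genes 2 were higher and 4 lower, to be read against 14.6% and 17.8% over all members. Skp2, an F-box gene for CDK inhibitors, was at 12.4 CPM untreated and 3.55 CPM after LPS under the KO title, and 12.2 and 4.48 CPM under the WT title, a change of 3.50-fold (2.65 to 4.71) lower, and Fbxo32, encoding atrogin-1, was 10.5-fold (6.02 to 20.02) lower. Of 24 transcripts of reported FBXW7 substrates 6 were higher and 1 lower (4 and 5 with library totals), a share of higher calls read against 14.6% over all members, and these are RNA levels and not the proteins that the ligase acts on. Of 20 Polycomb and H3K27 demethylase genes 5 were higher and 5 lower (3 and 8 with library totals). Kdm6b, the LPS-inducible H3K27 demethylase, was 2.93-fold (2.54 to 3.38) higher, and Cbx8, a Polycomb repressive complex subunit, fell from 9.58 to 0.612 CPM under the KO title and from 6.89 to 1.16 CPM under the WT title, a change of 15.7-fold (8.38 to 33.04) lower. Of 12 Notch pathway genes 6 were higher and 3 lower (4 and 4 with library totals). Dll1, a Notch ligand, was at 0.145 CPM untreated and 13.2 CPM after LPS under the KO title, and 0.136 and 7.40 CPM under the WT title, high in both LPS libraries, with a change of 91.4-fold (35.2 to 338) higher. The receptor genes Notch1 and Notch2 were 3.90-fold (3.66 to 4.14) higher and 3.58-fold (3.43 to 3.74) higher, while Hey1, a target, was 23.4-fold (7.83 to 115) lower.

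Outside the lists, several other genes stood at the ends of the ranking. Sdc4, encoding the cell surface proteoglycan syndecan 4, was at 62.2 CPM untreated and 5545 CPM after LPS under the KO title, and 50.9 and 4287 CPM under the WT title, high in both LPS libraries, with a change of 89.2-fold (85.1 to 93.6) higher. Trim30c, of an interferon-inducible gene cluster with close copies, was 86.8-fold (72.7 to 105) higher, and Tnfaip2, a tumour necrosis factor target, was 19.3-fold (18.8 to 19.9) higher. Among the genes with the smallest ratios and at least 20 counts in both KO-titled libraries were Slc26a11, an anion transporter, 20.7-fold (14.6 to 30.4) lower, Engase, a glycan-cleaving enzyme, 16.9-fold (12.5 to 23.5) lower, and Lyl1, a haematopoietic transcription factor, 17.2-fold (13.9 to 21.5) lower, or 8.79-fold lower on the WT baseline. Genes that are not protein coding numbered 1207, of which 262 (21.7%) were called higher and 209 (17.3%) lower. By class, 30 of 185 long intergenic RNAs were higher and 75 lower, against 83 and 11 of 461 processed pseudogenes, whose reads can come from their parent genes. The long intergenic RNA AI504432 was at 2.89 CPM untreated and 124 CPM after LPS under the KO title, and 3.72 and 133 CPM under the WT title, a change of 42.9-fold (34.3 to 54.4) higher. A second, AU022793, was 9.53-fold (6.31 to 15.1) lower, or 3.64-fold lower on the WT baseline.

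The KO-titled response was set against the WT-titled one, with which it shares no library. Over all 12326 members, 1899 were called higher and 1847 lower under the WT title, and the shares below are to be read against these counts. Of the 1803 genes called higher under the KO title, 1285 (71.3%) were also higher under the WT title, which is 67.7% of the 1899 higher there. Of the 2196 called lower under the KO title, 1097 (49.95%) were lower under the WT title, 59.4% of the 1847 there. In 155 of the 12326 members the calls were opposite, with 62 higher and 93 lower under the KO title. The difference of responses, KO title minus WT title, was at least 1 log2 unit with a 95% counting interval excluding 0 for 951 genes in the positive direction (7.72%) and 1275 in the negative direction (10.3%). With library totals these counts were 1190 and 1048, so the larger direction turned. Among genes with at least 20 counts in each library, the most negative was Lyz1, at -7.09 (-7.66 to -6.52) in log2, followed by Itgb7 at -6.90 and Hmga2, an architectural chromatin protein gene, at -6.70. Among the same genes the most positive was Hpgd, at 5.74 (5.03 to 6.46), followed by Marco at 4.71 and Itgax, the CD11c gene, at 4.64. For genes of the core response the difference was -0.80 for Tnfaip3, -0.26 for Rsad2, -0.36 for Acod1 and -0.03 for Socs3. Each of these differences rests on 4 single libraries, and the counting interval holds no spread between cultures.

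**Figure D4:**
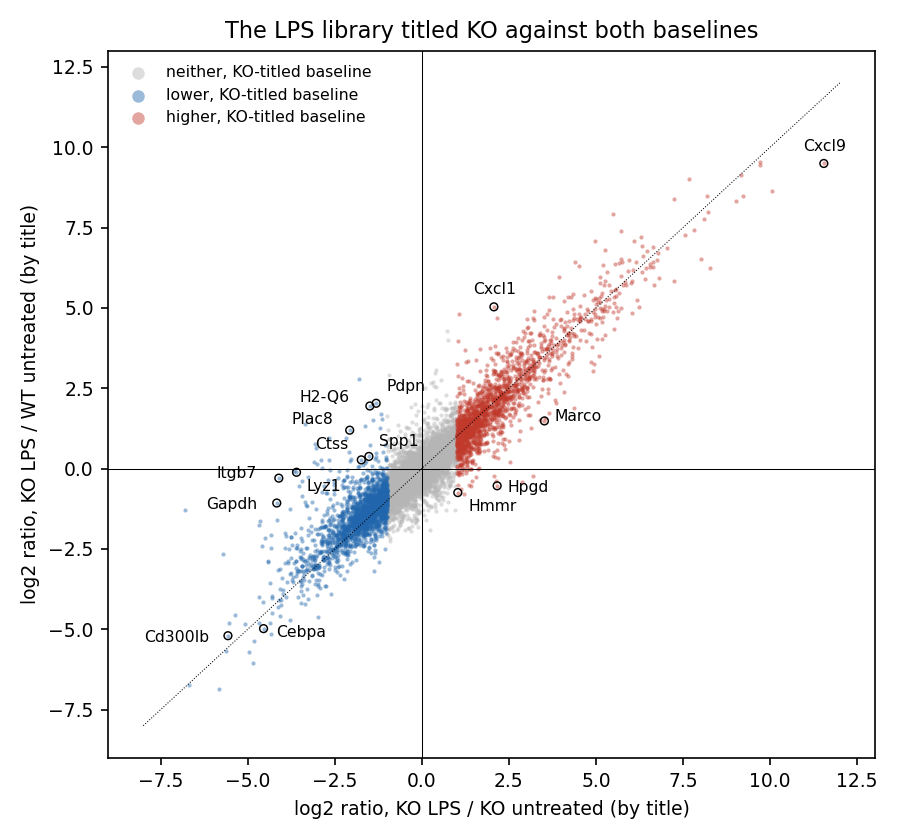
Log2 ratio of the LPS library titled KO to the untreated library titled KO (horizontal axis) and to the untreated library titled WT (vertical axis), 1 point per member gene, with a dotted line of equality. Cxcl9 and Cebpa lie far from 0 on both axes, while Ctss, Spp1 and Plac8 lie below 0 on the horizontal axis and above 0 on the vertical axis, and Hpgd the reverse.

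**Figure D5:**
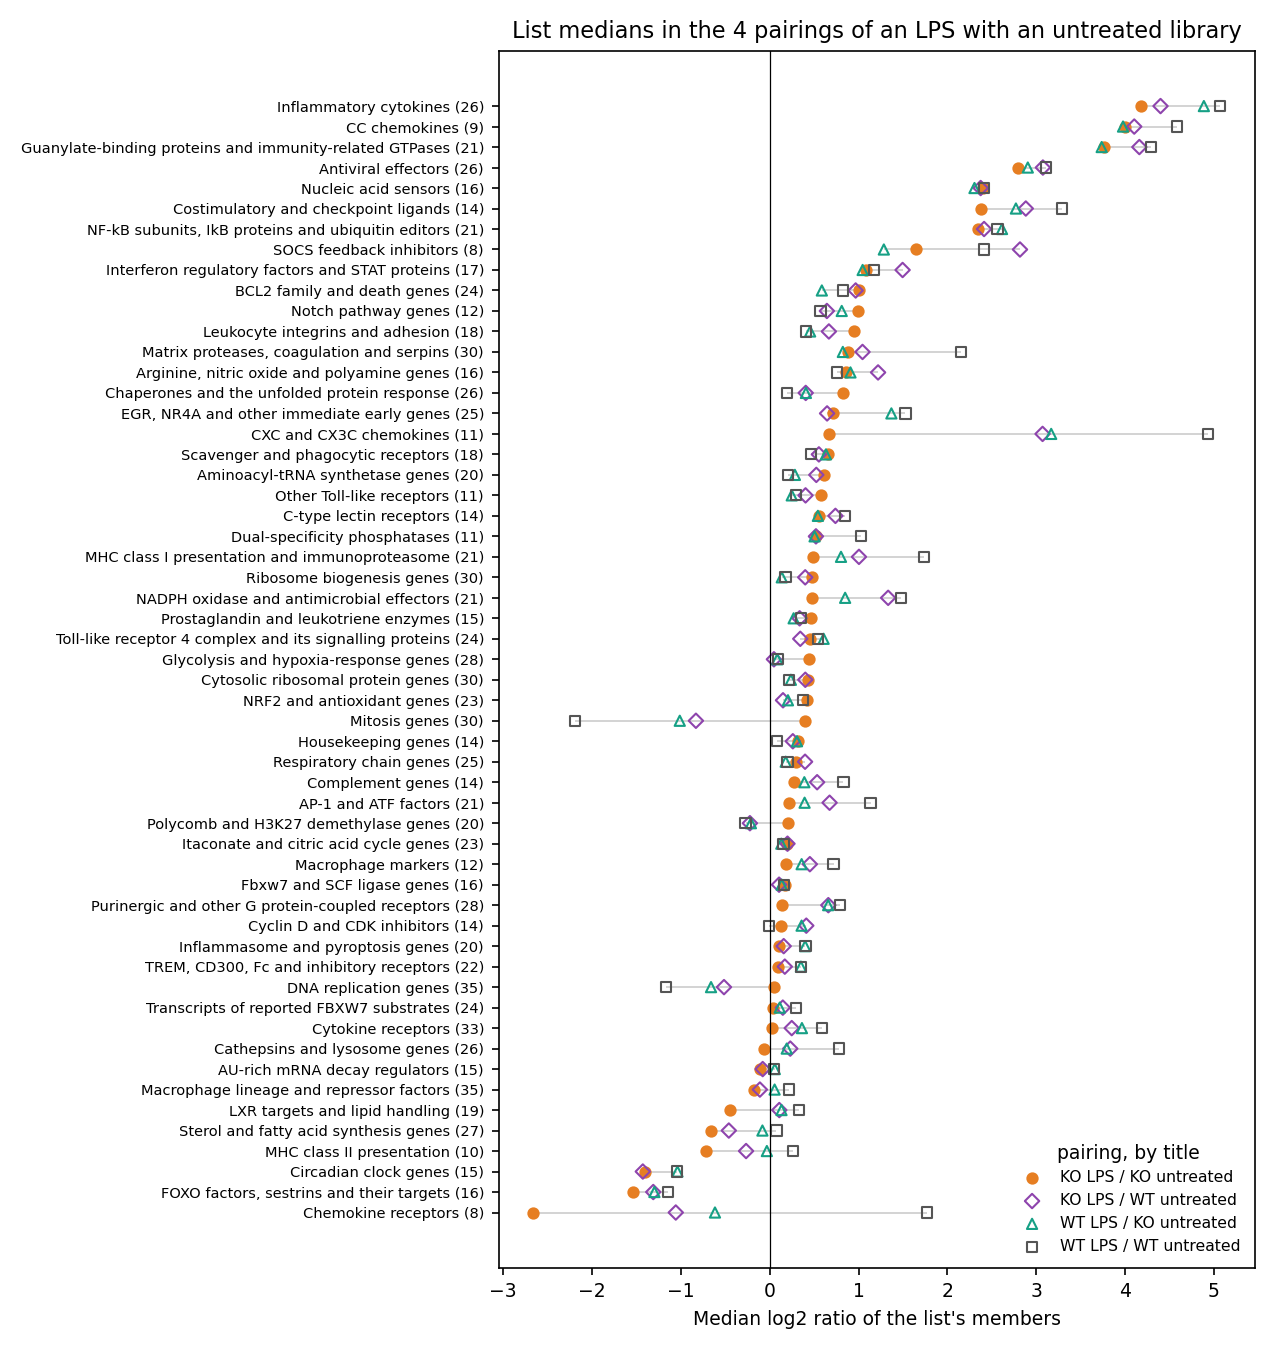
Median log2 ratio of gene lists with at least 8 measured members in the 4 pairings of an LPS with an untreated library, 1 row per list, with an orange circle for KO LPS over KO untreated, a purple diamond for KO LPS over WT untreated, a green triangle for WT LPS over KO untreated and a grey square for WT LPS over WT untreated. The NF-kB, GTPase and antiviral lists stay above 0 in every pairing, and the chemokine receptor and mitosis lists spread across 0.

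The authors' deposited table gave its own comparison of the KO-titled pair, with an adjusted p-value for all 12326 members. The authors' deposited table put 3291 members past an adjusted p of 0.05, 1577 higher and 1714 lower, and every one of them was also called by the size rule used here. Both rest on the same 2 libraries, so the overlap is no independent check. The size rule called 3999 members in all. With 1 library a group, that p measures no spread between cultures or animals.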

How the data were processed

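RNA was sequenced from 4 libraries of bone marrow-derived macrophages, 1 per group. The submitters' processing notes name HISAT2 2.0.5 and mm10. Whole-number read counts per gene were deposited for each library, per the file headers. The same table holds FPKM values computed by the authors, and, for their own comparisons, log2 fold changes with raw and adjusted p-values from the authors' test, per the file headers. The sources used here do not state how reads were counted or whether strand was used. Genes that overlap or have near copies are therefore uncertain. Not used here were 8 other columns of per-sample values.

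Groups followed the sample titles. Counts were scaled by TMM (edgeR 4.0.16 in R 4.3.3), with factors of 1.25, 1.16, 0.820 and 0.840 for WT untreated, KO untreated, WT LPS and KO LPS, and log2 ratios of CPM took a prior count of 2. Folds in the text leave the prior out. Most folds on the WT baseline are printed without an interval, though counting error applies to them too. Intervals are exact 95% Clopper-Pearson intervals of the counts, or Poisson intervals by the delta method for the difference of responses, and cover counting error only. Where a library held 0 counts, the fold is a lower bound set by 3 counts in that library. With 1 library per group no p-value was computed.

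Genes were named by rule: Fbxw7, Lyz1 and Lyz2; the 12 with the largest gain and loss in CPM; the 12 with the largest and smallest log2 ratio at 20 counts or more in both libraries; in each of 63 gene lists up to 5 called members per direction and 2 abundant members not called; the 8 with the largest and smallest difference of responses; and 5 genes per direction that are not protein coding. A few genes that this rule picks are not reported here. The members and lists were chosen with earlier results of these data known. Of 1162 listed genes in the table, 1056 were members. Alternatives were library totals, DESeq2 1.42.0 size factors, a prior count of 0.5, the authors' FPKM with a pseudocount of 1, other filters and thresholds, and swapped libraries. The calling steps were run on simulated counts that held counting error only, with planted changes larger than the 2-fold rule. That run checks the steps and cannot show how the calls would hold between cultures. Tables were handled with pandas 2.3.3 and NumPy 2.4.6 under Python 3.11.15, intervals came from SciPy 1.17.1, and plots were drawn with matplotlib 3.10.9.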

Additional observations from a re-analysis of the deposited data

Results flagged for a closer look

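A gene was set apart for a closer look where its LPS response was called in opposite directions under the 2 titles. Of the 460 named genes examined, 37 met this: 25 were called lower under the KO title and higher under the WT title, and 12 the reverse. Over all 12326 members, 155 had opposite calls. The named set includes genes picked for a large difference of responses, so its share is not that of all members. The value given is the difference of the log2 responses, KO title minus WT title, which rests on 4 single libraries, so it was not tested beyond counting error.

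Among genes lower under the KO title and higher under the WT title, surface receptor and adhesion genes were Itgb7 at -6.90, Ccr1 at -6.55, Ly6a at -6.28, Pdpn at -6.23, Ccr2 at -5.52, Il7r at -4.35, Siglec1 at -4.12, Ly6e at -3.36 and Trem1 at -3.07. Protease and secreted protein genes were Ctsk at -6.34, Ccl8 at -4.96, Mmp8 at -4.39, Ctss at -3.95, Thbs1 at -3.84, Spp1 at -3.82 and Ctsl at -3.17. Lysozyme and class I genes, whose close copies can share reads, were Lyz1 at -7.09, H2-Q6 at -6.05 and H2-Q7 at -5.10. The others were Hmga2 at -6.70, Plac8 at -6.25, Nr4a2 at -3.20, Nr4a1 at -2.96, Plin2 at -2.05 and AI606473 at -5.01. In each of these genes the calls ran against each other, and the report gives the levels of those it describes in all 4 libraries.

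Among genes higher under the KO title and lower under the WT title, mitosis genes were Hmmr at 3.56, Cdc25c at 3.19, Birc5 at 3.01 and Ube2c at 2.90. Surface protein genes were Marco at 4.71, Itgax at 4.64, Adam23 at 4.29 and Nrxn2 at 4.05. The others were Hpgd at 5.74, Calb2 at 3.87, Ighm at 3.52 and Herpud1 at 3.13. The genotype tags, which contradict the titles, were not used to regroup any library, and whether the difference belongs to genotype or to a pairing of the libraries cannot be told apart.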

How the results depend on the processing

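Of 1803 genes called higher under the KO title the count went to 1147 with library totals and 774 with a fold of 4, and was within 1.5 times of it elsewhere. Of 2196 called lower it went to 3938 with library totals, 818 with the authors' FPKM, 1314 with a mean CPM of at least 5, 608 with a fold of 4 and 1019 where all 4 pairings were required, an alternative chosen after seeing the data. The share of calls that were higher was 45.1%, and it was 22.6% with library totals and 64.1% with the authors' FPKM. The difference of responses, KO title minus WT title, was called positive in 951 genes and negative in 1275, and in 300 and 397 of them with a difference of at least 2 in log2. With library totals these counts were 1190 and 1048.

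Medians of 57 lists changed sign in 20 with library totals, 7 with the LPS library titled WT, 5 on the WT baseline, 1 with DESeq2 size factors and 1 with the authors' FPKM. Among the 460 named genes, the log2 ratio left its counting interval in 389 with library totals, 340 with the authors' FPKM and 169 with DESeq2 size factors. With a prior count of 0.5 it stayed inside for all 460. The printed intervals thus do not cover the choice of scaling. On the WT baseline the log2 ratio of these called genes turned: Ctss to 0.27, Spp1 to 0.38, Ly6e to 0.31, Plin2 to 0.29, Ccl8 to 0.52, Il7r to 0.25, Ccr1 to 0.66, Nr4a2 to 0.18, Hpgd to -0.54, H2-Q6 to 1.95, H2-Q7 to 1.69, Ctsk to 0.22, Ube2c to -0.13, Birc5 to -0.50, Hmmr to -0.75, Herpud1 to -0.0044, Plac8 to 1.19, Pdpn to 2.03 and AI606473 to 0.016. With the LPS library titled WT in place of the one titled KO these turned: Lyz1 to 0.00997, Ctss to 0.20, Spp1 to 0.40, Ly6e to 0.36, Ly6a to 0.21, Siglec1 to 0.35, Ccl8 to 0.25, Dusp4 to 0.026, Egln3 to 0.17, Fads2 to 0.074, Hpgd to -0.89, Trem1 to 0.45, H2-Q6 to 1.12, H2-Q7 to 1.052, Ube2c to -0.24, Cdc25c to -1.10, Birc5 to -0.43, Hmmr to -0.75, Herpud1 to -0.29, Adam23 to -0.61, Nrxn2 to -0.20, Plac8 to 0.92 and Pdpn to 1.57. The cause was not tested, and the others called under the KO title among the 460 named genes examined kept their sign under the alternatives run.

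No paired analysis was possible because each group is 1 library, and leaving out a library leaves no comparison, so swapping the untreated or the LPS library stands in for it. Genes near 3 counts in a library (0.108 to 0.184 CPM) have wide counting intervals, and no interval here holds the spread between cultures or mice.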

Other observations

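Further genes named by rule had the following values, some of them members of the marker lists. Slc43a2, an amino acid transporter gene, was at 847 CPM untreated and 228 CPM after LPS under the KO title, and 703 and 282 CPM under the WT title, lower in both LPS libraries, with a change of 3.71-fold (3.58 to 3.84) lower. Lrp1, a scavenger and signalling receptor gene, was at 1555 CPM untreated and 754 CPM after LPS under the KO title, and 1028 and 1060 CPM under the WT title, with a change of 2.06-fold (2.02 to 2.10) lower, or 1.36-fold lower on the WT baseline. Adam8, a membrane protease gene, was highest in the untreated library titled KO, at 1161 CPM untreated and 276 CPM after LPS under the KO title, and 463 and 768 CPM under the WT title, a change of 4.20-fold (4.07 to 4.34) lower, or 1.67-fold lower on the WT baseline. Zfp395 was 17.5-fold (12.8 to 24.6) lower and B3gnt8, a glycosyltransferase gene, was 16.2-fold (12.2 to 22.1) lower. Cd209f, a lectin gene related to DC-SIGN, was at 2.82 CPM untreated and 25.6 CPM after LPS under the KO title, and 10.7 and 5.88 CPM under the WT title, a change of 9.09-fold (7.12 to 11.7) higher, or 2.41-fold higher on the WT baseline. Avil, encoding the actin-binding protein advillin, was at 2.31 CPM untreated and 15.1 CPM after LPS under the KO title, and 4.58 and 2.33 CPM under the WT title, a change of 6.53-fold (4.94 to 8.74) higher, or 3.30-fold higher on the WT baseline. Calb2, encoding the calcium-binding protein calretinin, was at 22.4 CPM untreated and 157 CPM after LPS under the KO title, and 70.6 and 33.7 CPM under the WT title, a change of 7.03-fold (6.44 to 7.69) higher, or 2.23-fold higher on the WT baseline. Lck, a T cell kinase gene, was at 0.398 CPM untreated and 5.996 CPM after LPS under the KO title, and 0.0454 and 3.09 CPM under the WT title, a change of 15.1-fold (8.07 to 31.2) higher, or 132-fold higher on the WT baseline. Its untreated level under the WT title was below that of 3 counts in that library (0.136 CPM). Cd4, also found on some macrophages, was not called, at 35.6 CPM untreated and 55.99 CPM after LPS under the KO title, and 29.3 and 52.3 CPM under the WT title. Cd28, a T cell costimulatory receptor gene, was at 35.1 CPM untreated and 12.6 CPM after LPS under the KO title, and 38.8 and 17.2 CPM under the WT title. Kit, the mast cell and progenitor receptor gene, was at 1.30 CPM untreated and 2.81 CPM after LPS under the KO title, and 0 and 2.74 CPM under the WT title, and no fold is given on the WT baseline, where it was at 0. The part of other cell types in these values was not tested.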
